A study of Homo sapiens with 6 samples.

Results

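The 43 genes described here encode enzymes of the urea cycle and of amino acid breakdown. They are a list of symbols that were looked up among the gene names of the authors' table of log2 FPKM (fragments scaled to gene length and to library size) and joined by identifier to the authors' table of raw counts. The FPKM table held 39 of the 43 symbols among its 18404 genes, and all 39 passed the filter on low counts and were tested. OTC, TDO2, BCKDHA and SDS were not among its gene names. They were found by symbol among the 60504 genes of the count table, where their counts were too low for a test.

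RNA sequencing measured transcript levels in HepG2, an established line from a human liver carcinoma, known for hepatocyte-like functions and for low levels of some urea cycle enzymes. The 6 libraries came from adherent cells grown in DMEM. Of these, 3 had been exposed for 48 h to 10 µM oridonin, a plant diterpenoid, and 3 to 0.1% DMSO, the solvent control. The labels do not give the DMSO content of the oridonin wells, and the title of the series names the metabolic action of oridonin as its question.

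The urea cycle is the liver's main route for disposing of ammonia. CPS1 and OTC act in the mitochondrion and form citrulline from ammonia, and ASS1, ASL and arginase then act in the cytosol, add the nitrogen of aspartate and release urea. Aminotransferases collect the amino groups of other amino acids on glutamate, from which GLUD1 sets ammonia free, while separate enzyme chains break down the remaining carbon skeletons to intermediates of energy metabolism.

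Total counts were 27674586 to 30739574 in the oridonin libraries and 22250202 to 29352396 in the DMSO libraries. Correlations of log2 CPM (counts scaled to library size) between libraries were 0.992 to 0.9956 within a treatment and 0.978 to 0.9857 between treatments. All 10 hepatocyte markers examined were detected, with summed levels of 11101 to 12184 CPM of total counts with oridonin and 15985 to 17339 with DMSO. The markers did not move as 1 group: ALB, AFP, APOA1, APOH, SERPINA1 and TF fell, FGB rose (log2 fold change 1.23) as did APOA2 (0.19), and TTR (-0.20) and HNF4A (-0.04) were not called. The part of these marker changes in the falls given here was not tested. The labels mention 3 duplicate samples per treatment and not whether they were separate cultures, so a p-value here measures the spread between samples that may differ only technically.

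A gene was called when the adjusted p (Benjamini-Hochberg over the 15116 genes tested) of edgeR's quasi-likelihood test was under 0.05. By that rule 22 of the 39 tested genes of the list were called (56.4%), against 41.9% of all genes tested. Oridonin raised 4 of the 39 (10.3%, against 20.6% of all genes tested) and lowered 18 (46.2%, against 21.3% of all genes tested). Those that rose were PRODH, AADAT, HPD and FAH. Those that fell included enzymes of the urea cycle (ASS1, CPS1, ARG1), the glutamate node (GLUD1, GLUL), alanine aminotransferases (GPT, GPT2) and sulfur amino acid breakdown (CTH, CBS). The median log2 fold change, oridonin over DMSO, was -0.13 over the 39 and 0.01 over all genes tested. In whole-well RNA, fewer cells with a transcript and less transcript per cell cannot be told apart. Since the genes were listed with earlier results of these data known, these shares are a description.

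All 3 oridonin libraries lay below all 3 DMSO libraries for 20 of the 39 genes, against 25.6% of all genes tested, and above them for 6, against 26.0%. The treatments thus stood apart for 26 of the 39, against 51.6% of all genes tested, and overlapped for the other 13. A change of at least 2-fold among called genes was seen for 4 of the list, against 4.72% of all genes tested: ARG1, ASS1 and GPT were lower and PRODH was higher. With scaling by total counts in place of TMM (trimmed mean of M values) factors, 5 genes of the list were called higher and 14 lower, beside 4487 higher and 2359 lower of all genes tested. TMM scaling gave 3118 higher and 3214 lower of all genes tested.

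**Figure D1:**
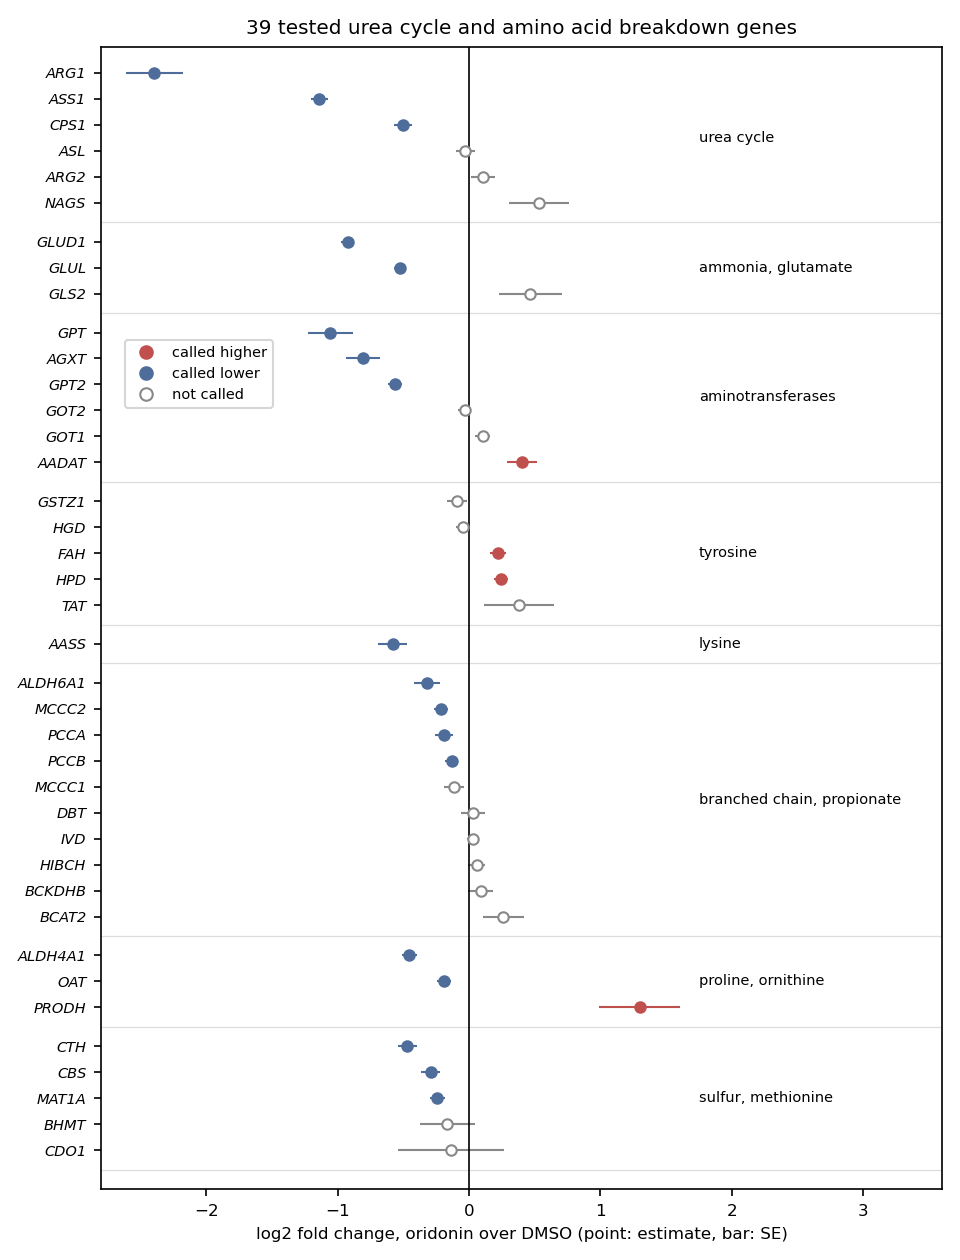
Log2 fold change of each of the 39 tested genes, oridonin over DMSO, on the horizontal axis, grouped by pathway; points are edgeR estimates, bars are their SE, and filled points were called at adjusted p under 0.05. The 18 genes called lower lie left of 0, from ARG1 at -2.39 to PCCB at -0.13, and the 4 called higher reach 1.30 for PRODH.

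Of the 6 tested urea cycle genes, ASS1, CPS1 and ARG1 fell and ASL, ARG2 and NAGS were not called. ASS1 (ENSG00000130707, chr9:130444929-130501274, plus strand, hg38) encodes argininosuccinate synthase, which joins citrulline and aspartate. It measured 66.5, 64.7 and 71.6 CPM in the oridonin libraries and 142, 139.6 and 164 CPM in the DMSO libraries. Every oridonin library was far below the lowest DMSO library. The log2 fold change of ASS1 was -1.14 ± 0.06 (SE, n = 3 per treatment, edgeR adjusted p = 9.99e-10), a 2.20-fold lower level with oridonin. GENCODE names 11 pseudogenes after ASS1, whose counts together were 18 to 27 per oridonin library and 20 to 25 per DMSO library, so few reads were assigned to them.

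CPS1 (chr2:210477682-210679107, plus strand, hg38) encodes carbamoyl phosphate synthetase, the entry enzyme of the cycle. Its levels were 22.9, 23.8 and 21.2 CPM in the oridonin libraries and 34.5, 30.9 and 30.9 CPM in the DMSO libraries. The groups did not overlap. The CPS1 transcript fell by 0.50 ± 0.07 on the log2 scale (SE, n = 3 per treatment, edgeR adjusted p = 2.2e-05). NAGS, whose product N-acetylglutamate switches CPS1 on, had 24.1, 24.8 and 29.9 CPM with oridonin and 13.4, 16.1 and 24.5 CPM with DMSO. DMSO library 3 lay above the lowest oridonin library, so the groups overlapped, and the other 2 DMSO libraries lay below all oridonin libraries. NAGS was not called (log2 fold change 0.53 ± 0.23, edgeR adjusted p = 0.125), and with a library left out its log2 fold change ran from 0.37 without DMSO library 1 (edgeR adjusted p = 0.171) to 0.82 without DMSO library 3 (edgeR adjusted p = 1.04e-06).

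ARG1 (chr6:131573144-131584332, plus strand, hg38) is the cytosolic arginase that releases urea in hepatocytes. It had 33, 23 and 19 counts in the oridonin libraries and 103, 96 and 138 counts in the DMSO libraries. This was a low level in both treatments, 0.819 ± 0.192 CPM with oridonin and 4.37 ± 0.880 CPM with DMSO (SD, n = 3 each), with no overlap. ARG1 fell by 2.39 ± 0.21 on the log2 scale (SE, edgeR adjusted p = 1.47e-07), 5.26-fold lower with oridonin. ARG2, the mitochondrial arginase, had 14.2, 15.5 and 13.3 CPM with oridonin and 11.8, 13.6 and 14.5 CPM with DMSO. Its groups overlapped and it was not called (log2 fold change 0.11 ± 0.09, edgeR adjusted p = 0.373). Of its exon bases, 37.4% overlap VTI1B on the opposite strand, which averaged 12.4 CPM with oridonin and 16.2 CPM with DMSO, so the ARG2 value is uncertain where reads were counted without strand. ASL, which splits argininosuccinate into arginine and fumarate, averaged 36.9 ± 3.19 CPM with oridonin and 37.6 ± 3.08 CPM with DMSO (SD, n = 3 each) and was not called (edgeR adjusted p = 0.796).

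OTC, the ornithine transcarbamylase between CPS1 and ASS1, had no count in the oridonin libraries and 1 count in all in the DMSO libraries. A library with fewer than 3 counts lies below a floor of 0.0976 to 0.135 CPM, and these floors cover counting error only. OTC was thus not detectable at this depth, and no comparison was made.

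The 4 promoters below are shown because they belong to the gene of the list with the lowest log2 fold change among those with at least 10 CPM (ASS1), the gene with the highest (NAGS, not called), and the isozyme pair whose fold changes lay farthest apart (ARG1 and ARG2). Each is the 250 bases before the RefSeq start, read 5′ to 3′ on the plus strand of GRCh38.p14: chr9:130444457-130444706 for ASS1, chr17:44004372-44004621 for NAGS, chr6:131572976-131573225 for ARG1 and chr14:67619670-67619919 for ARG2. The deposited gene starts lie 222, 76, 82 and 122 bases from the RefSeq starts, inside the shown stretch for NAGS, ARG1 and ARG2. Capitals mark matches to any of 7 motifs searched on both strands.
ASS1 promoter: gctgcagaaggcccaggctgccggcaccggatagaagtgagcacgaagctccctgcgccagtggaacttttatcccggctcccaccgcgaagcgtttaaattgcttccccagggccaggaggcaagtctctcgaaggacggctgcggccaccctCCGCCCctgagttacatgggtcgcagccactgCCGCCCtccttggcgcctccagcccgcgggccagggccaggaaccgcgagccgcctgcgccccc
NAGS promoter: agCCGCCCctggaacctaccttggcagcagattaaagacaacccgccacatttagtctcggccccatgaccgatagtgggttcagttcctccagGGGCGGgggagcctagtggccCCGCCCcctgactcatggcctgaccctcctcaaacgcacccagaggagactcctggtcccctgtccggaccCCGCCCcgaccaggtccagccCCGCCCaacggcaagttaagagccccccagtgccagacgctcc
ARG1 promoter: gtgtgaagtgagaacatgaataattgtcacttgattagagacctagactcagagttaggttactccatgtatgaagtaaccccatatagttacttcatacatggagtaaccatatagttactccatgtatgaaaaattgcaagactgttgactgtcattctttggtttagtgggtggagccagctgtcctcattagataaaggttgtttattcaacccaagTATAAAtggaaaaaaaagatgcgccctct
ARG2 promoter: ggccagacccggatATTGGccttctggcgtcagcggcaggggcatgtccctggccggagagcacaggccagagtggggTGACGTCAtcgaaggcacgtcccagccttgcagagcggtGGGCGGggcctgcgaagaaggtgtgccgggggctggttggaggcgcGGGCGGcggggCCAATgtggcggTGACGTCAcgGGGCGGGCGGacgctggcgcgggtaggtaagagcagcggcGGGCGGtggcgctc

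The TATA box was searched as TATAAA, the CCAAT box by those letters and the GC box as GGGCGG. The E-box was searched as CACGTG. The cAMP response element was searched as TGACGTCA. The element bound by C/EBP and ATF factors was searched as TGATGNAA. The element bound by HNF4 was searched as CAAAGTCCA. The ASS1 stretch holds 2 GC boxes and the NAGS stretch holds 5. The ARG1 stretch has a GC content of 37.6%, against 72.4% for ARG2 and a median of 58% over the 35116 RefSeq promoters, and its sole match is a TATA box 29 to 24 bases before the start. ARG2 has no TATA box match, and instead holds 5 GC boxes, of which a pair share bases, 2 CCAAT boxes and 2 copies of TGACGTCA. The 2 copies of TGACGTCA share no base with the other matches.

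Promoters were found for 37 of the 43 genes. The TATA box was in 4 of these 37 (OTC, ARG1, TDO2 and BHMT) and in 10.7% of all promoters. The GC box was in 25 of 37 and in 42.6% of all promoters, and CCAAT in 18 of 37 and in 32.0% of all. TGACGTCA was in ARG2 alone among the 37 and in 1.65% of all promoters. TGATGNAA was in GOT1 alone and in 3.14% of all, CACGTG was in 3 of 37 and in 6.34% of all, and CAAAGTCCA was in none of the 37 and in 0.325% of all. A match is a description of letters and no evidence of binding.

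GLUD1 and GLUL fell, and GLS2 was not called, among the 3 genes that release or fix ammonia through glutamate and glutamine. GLUD1 (chr10:87050486-87094866, minus strand, hg38) encodes the mitochondrial glutamate dehydrogenase. Its levels were 211, 228 and 204 CPM in the oridonin libraries and 410.5, 407 and 401.5 CPM in the DMSO libraries. The highest oridonin library was well under the lowest DMSO library, and the DMSO libraries lay close together. GLUD1 had a log2 fold change of -0.92 ± 0.05 (SE, n = 3 per treatment, edgeR adjusted p = 4.25e-10), 1.89-fold lower with oridonin. GLUD2, a near-identical retrocopy, is uncertain where reads of both genes could be shared. Together with the 5 annotated pseudogenes it took at most 3.09 CPM of total counts in an oridonin library and 4.22 in a DMSO library.

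GLUL (chr1:182381704-182392206, minus strand, hg38) encodes glutamine synthetase, which fixes ammonia that escapes the urea cycle. It had 183.5, 189 and 184 CPM with oridonin and 263, 264 and 272 CPM with DMSO. The spread within each treatment was small beside the gap between them. The log2 fold change of GLUL was -0.52 ± 0.05 (SE, edgeR adjusted p = 1.01e-07). GLS2, the liver-type glutaminase, averaged 2.46 ± 0.588 CPM with oridonin and 1.74 ± 0.590 CPM with DMSO (SD, n = 3 each) and was not called (edgeR adjusted p = 0.129). With a library left out its log2 fold change, 0.47 over all libraries, ran from 0.26 without DMSO library 1 (edgeR adjusted p = 0.385) to 0.73 without DMSO library 2 (edgeR adjusted p = 0.0362). It was 0.28 without oridonin library 3 (edgeR adjusted p = 0.405). Its value is uncertain, since 77.1% of its exon bases overlap SPRYD4 on the opposite strand, which averaged 20.5 CPM with oridonin and 16.8 CPM with DMSO.

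Both alanine aminotransferases and AGXT fell among the 6 aminotransferases, AADAT rose, and the aspartate aminotransferases GOT1 and GOT2 were not called. GPT2 (chr16:46884378-46931297, plus strand, hg38), the mitochondrial alanine aminotransferase, measured 389.9, 356 and 401 CPM in the oridonin libraries and 549, 554 and 588 CPM in the DMSO libraries. All oridonin libraries lay under all DMSO libraries. The GPT2 transcript fell by 0.56 ± 0.05 on the log2 scale (SE, edgeR adjusted p = 2.35e-07). GPT, the cytosolic enzyme measured in blood as ALT, was at a low level, 2.35, 1.46 and 1.88 CPM with oridonin and 3.96, 3.86 and 4.05 CPM with DMSO. Its groups did not overlap, and it fell by 1.06 ± 0.17 on the log2 scale (SE, edgeR adjusted p = 9.51e-05).

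AADAT (chr4:170060222-170091699, minus strand, hg38) encodes the mitochondrial aminotransferase for kynurenine and for aminoadipate, an intermediate of lysine breakdown. It had 10.4, 9.87 and 10.9 CPM with oridonin and 9.39, 7.80 and 6.46 CPM with DMSO. The oridonin libraries were alike and all lay above the DMSO libraries, which were more spread out. AADAT rose by 0.41 ± 0.12 on the log2 scale (SE, edgeR adjusted p = 0.0098). AGXT, the peroxisomal alanine-glyoxylate aminotransferase, averaged 3.39 ± 0.408 CPM with oridonin and 5.92 ± 0.162 CPM with DMSO (SD, n = 3 each) and fell by 0.81 on the log2 scale (edgeR adjusted p = 7.91e-05). GOT1, the cytosolic aspartate aminotransferase, averaged 153.7 ± 3.16 CPM with oridonin and 142.7 ± 12.1 CPM with DMSO (SD, n = 3 each, edgeR adjusted p = 0.152). With a library left out its log2 fold change, 0.11 over all libraries, ran from 0.05 without DMSO library 1 (edgeR adjusted p = 0.569) to 0.17 without DMSO library 3 (edgeR adjusted p = 0.00887). GOT2, its mitochondrial counterpart, averaged 167 ± 8.93 CPM with oridonin and 171 ± 3.00 CPM with DMSO (SD, n = 3 each, edgeR adjusted p = 0.636).

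**Figure D2:**
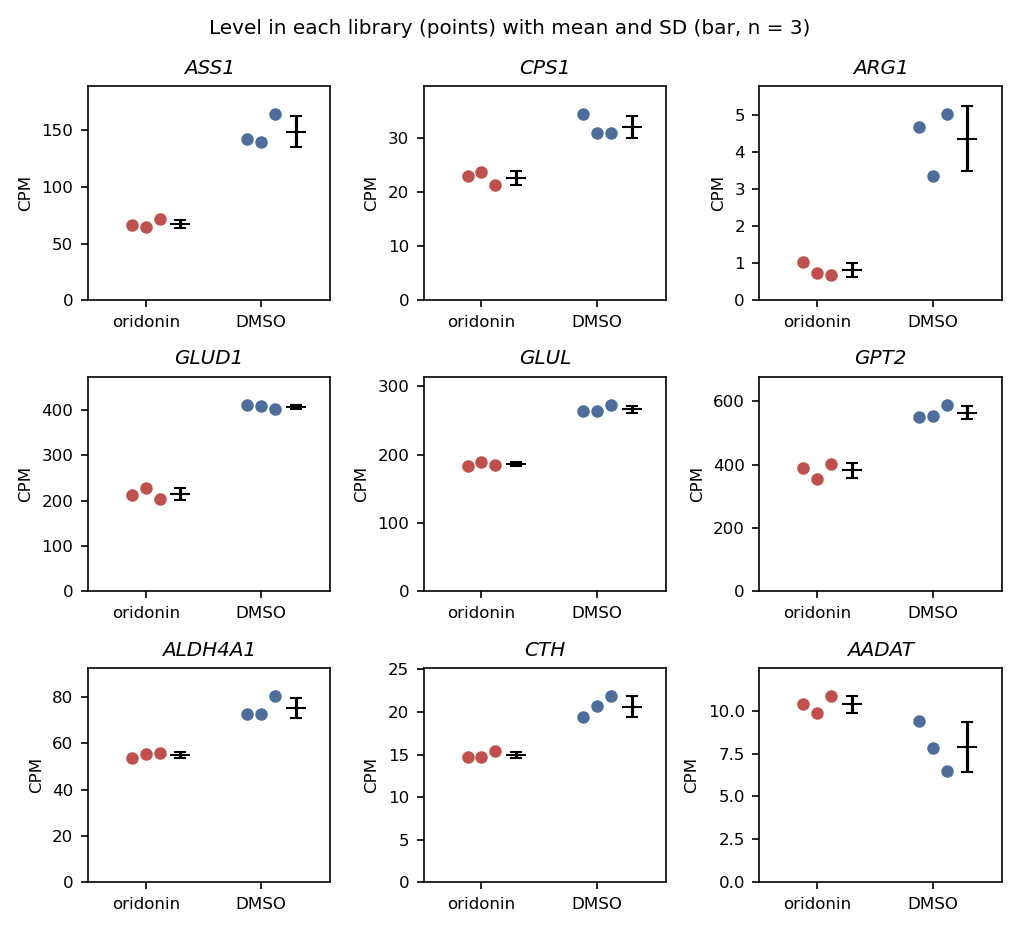
CPM (TMM scaled, vertical axes from 0) of ASS1, CPS1, ARG1, GLUD1, GLUL, GPT2, ALDH4A1, CTH and AADAT in each library; points are libraries and bars are mean and SD over 3 libraries per treatment. The oridonin libraries lie below the DMSO libraries in each panel but that of AADAT, where they lie above.

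Tyrosine breakdown had 2 genes called higher and none called lower among 5 tested, beside 20.6% higher and 21.3% lower of all genes tested. The median absolute log2 fold change over all genes tested was 0.22. HPD, the 4-hydroxyphenylpyruvate dioxygenase, had 139.7, 155 and 154 CPM with oridonin and 124, 127 and 129 CPM with DMSO. All oridonin libraries exceeded all DMSO libraries, by a small margin relative to their level. HPD rose by 0.24 ± 0.05 on the log2 scale (SE, edgeR adjusted p = 0.00125). FAH, the fumarylacetoacetase that ends the pathway, averaged 41.3 ± 1.56 CPM with oridonin and 35.4 ± 0.944 CPM with DMSO (SD, n = 3 each), a log2 fold change of 0.22 ± 0.06 (SE, edgeR adjusted p = 0.00629). TAT, the aminotransferase that starts the pathway, stayed at a low level, 1.52 ± 0.298 CPM with oridonin and 1.14 ± 0.462 CPM with DMSO (SD, n = 3 each, edgeR adjusted p = 0.274). HGD, which opens the aromatic ring, averaged 67.2 ± 2.33 CPM with oridonin and 69.3 ± 3.65 CPM with DMSO (SD, n = 3 each, edgeR adjusted p = 0.555). GSTZ1, the maleylacetoacetate isomerase, was not called either (log2 fold change -0.09, edgeR adjusted p = 0.369).

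AASS, the bifunctional enzyme that starts lysine breakdown in the mitochondrion, fell. It averaged 6.09 ± 0.660 CPM with oridonin and 9.14 ± 0.642 CPM with DMSO (SD, n = 3 each), a log2 fold change of -0.58 ± 0.11 (SE, edgeR adjusted p = 0.000389). TDO2, the liver's tryptophan dioxygenase, had 0, 4 and 0 counts with oridonin and 1, 0 and 0 counts with DMSO, so 1 oridonin library alone exceeded 3 counts.

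Of 10 tested genes for branched-chain amino acids and propionate, 4 fell, by 0.13 to 0.32 on the log2 scale, and 6 were not called. A share of 40% called stood beside 41.9% of all genes tested in either direction. All 4 calls were lower, beside 21.3% lower and 20.6% higher of all genes tested. Of the 4 calls, 3 (ALDH6A1, PCCA and PCCB) were lost in several of the other settings. MCCC2, the beta subunit of methylcrotonyl-CoA carboxylase in leucine breakdown, averaged 140.0 ± 7.52 CPM with oridonin and 162.6 ± 7.22 CPM with DMSO (SD, n = 3 each). It fell by 0.22 ± 0.05 on the log2 scale (SE, edgeR adjusted p = 0.00371), and the log2 fold change of the partner subunit gene MCCC1 was -0.11 ± 0.08 (SE, edgeR adjusted p = 0.242, not called). ALDH6A1, the methylmalonate semialdehyde dehydrogenase of valine breakdown, averaged 7.55 ± 0.481 CPM with oridonin and 9.42 ± 0.768 CPM with DMSO (SD, n = 3 each), a log2 fold change of -0.32 ± 0.10 (SE, edgeR adjusted p = 0.0176).

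The call of ALDH6A1 was lost without DMSO library 2 (log2 fold change -0.26, edgeR adjusted p = 0.0937) and without oridonin library 1 (-0.27, edgeR adjusted p = 0.083). Both subunit genes of propionyl-CoA carboxylase stood near the threshold, PCCA at -0.19 ± 0.07 (log2 fold change and SE, edgeR adjusted p = 0.0325) and PCCB at -0.13 ± 0.05 (edgeR adjusted p = 0.0432). The PCCA call held without DMSO library 2 and was lost without any other library, at log2 fold changes of -0.21 to -0.16. The PCCB call held without oridonin library 3 and was lost without any other library, at log2 fold changes of -0.15 to -0.12. Each of these 2 calls held under 4 of 15 other settings. PCCB also shares 22.1% of its exon bases with STAG1 on the opposite strand.

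Among the genes of the list, those for earlier steps of the branched-chain route were not called. Outside the list, BCAT1 and ACADSB fell and HSD17B10 rose, as given below. BCAT2, the mitochondrial branched-chain aminotransferase, averaged 3.37 ± 0.203 CPM with oridonin and 2.78 ± 0.479 CPM with DMSO (SD, n = 3 each, edgeR adjusted p = 0.195). The log2 fold changes of BCKDHB and DBT, subunits of the branched-chain ketoacid dehydrogenase, were 0.09 ± 0.09 and 0.03 ± 0.09 (SE, edgeR adjusted p = 0.472 and 0.818). IVD, the isovaleryl-CoA dehydrogenase, stood at 0.03 ± 0.05 (log2 fold change and SE, edgeR adjusted p = 0.645). HIBCH, the hydroxyisobutyryl-CoA hydrolase, stood at 0.06 ± 0.06 (edgeR adjusted p = 0.494). BCKDHA, the partner subunit of BCKDHB, was listed with 7, 0 and 3 counts in the oridonin libraries and 3, 0 and 1 counts in the DMSO libraries. In GENCODE, 63.8% of its exon bases lie within AC011462.1 on the same strand, a gene model that had at most 1 count, so these counts are uncertain as a level of BCKDHA.

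ALDH4A1 and OAT fell and PRODH rose among the 3 genes of proline and ornithine breakdown. ALDH4A1 (chr1:18871430-18902781, minus strand, hg38) encodes the pyrroline-5-carboxylate dehydrogenase that forms glutamate. It had 53.8, 55.2 and 56.0 CPM with oridonin and 72.9, 72.6 and 80.5 CPM with DMSO. The oridonin libraries were close together and all lay below the DMSO libraries. ALDH4A1 fell by 0.45 ± 0.06 on the log2 scale (SE, edgeR adjusted p = 6.06e-06). In GENCODE, 41.1% of the ALDH4A1 exon bases lie within AL080251.1 on the same strand, a gene model with at most 3 counts. The level of ALDH4A1 is therefore uncertain. OAT, the ornithine aminotransferase, averaged 66.2 ± 1.58 CPM with oridonin and 75.7 ± 3.67 CPM with DMSO (SD, n = 3 each, edgeR adjusted p = 0.00869), a log2 fold change of -0.19 ± 0.05. Its call was lost with total-count scaling (-0.11, edgeR adjusted p = 0.121).

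PRODH, the proline dehydrogenase upstream of ALDH4A1, rose but was the lowest of the 39 genes per length in both treatments. It had 27, 26 and 31 counts in the oridonin libraries and 10, 9 and 10 counts in the DMSO libraries. The oridonin libraries were all higher, at a level of few reads. PRODH rose by 1.30 ± 0.31 on the log2 scale (SE, edgeR adjusted p = 0.00274), 2.46-fold higher with oridonin. Markers of B and plasma cells were also higher with oridonin, with sums of 36.2 to 81.4 CPM of total counts against 4.58 to 16.6 with DMSO. MS4A1, which marks B cells, was at 0 in all 6 libraries, and 3 of those 10 markers stayed under 1 CPM. IGHA1 had 254, 951 and 776 counts with oridonin and 1, 111 and 156 counts with DMSO, and was not called (edgeR adjusted p = 0.0916). CD79A had 537, 476 and 583 counts with oridonin and 30, 33 and 40 counts with DMSO, and was called higher. Of 8 markers of gut epithelium, 6 were called higher with oridonin (PIGR, OLFM4, CDX1, CDX2, LGALS4 and MUC2), beside 20.6% of all genes tested. VIL1, which made up most of their sum, fell, and the sum was 309.9 to 325 CPM of total counts with oridonin and 365 to 395 with DMSO. PIGR averaged 4.10 ± 2.18 CPM with oridonin and 0.245 ± 0.134 CPM with DMSO, and OLFM4 averaged 2.47 ± 0.409 CPM with oridonin and 0.428 ± 0.393 CPM with DMSO (SD, n = 3 each). The part of other cells in the PRODH result was not tested.

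CTH, CBS and MAT1A fell, and CDO1 and BHMT were not called, among 5 tested genes of sulfur amino acids and methionine. CTH (chr1:70411218-70439851, plus strand, hg38) encodes cystathionine gamma-lyase, which forms cysteine. It measured 14.7, 14.8 and 15.4 CPM with oridonin and 19.4, 20.7 and 21.9 CPM with DMSO. The groups stood apart and the oridonin libraries were nearly equal. CTH fell by 0.47 ± 0.07 on the log2 scale (SE, edgeR adjusted p = 8.08e-05).

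CBS, the cystathionine beta-synthase before CTH, averaged 16.2 ± 0.948 CPM with oridonin and 19.7 ± 0.383 CPM with DMSO (SD, n = 3 each), a log2 fold change of -0.29 ± 0.07 (SE, edgeR adjusted p = 0.00425). Its near-identical copy CBSL held 8 to 17 counts per oridonin library and 9 to 13 per DMSO library, and reads of both could have been assigned to either. MAT1A, the liver-type enzyme that makes S-adenosylmethionine, averaged 40.3 ± 0.790 CPM with oridonin and 47.7 ± 1.77 CPM with DMSO (SD, n = 3 each), a log2 fold change of -0.24 ± 0.06 (SE, edgeR adjusted p = 0.00258). BHMT, which remethylates homocysteine with betaine, averaged 1.63 ± 0.346 CPM with oridonin and 1.81 ± 0.312 CPM with DMSO (SD, n = 3 each, edgeR adjusted p = 0.561). CDO1, the cysteine dioxygenase, was at 0.400 ± 0.189 CPM with oridonin and 0.432 ± 0.0739 CPM with DMSO (SD, n = 3 each, edgeR adjusted p = 0.818). SDS, the serine dehydratase, had 0, 1 and 2 counts with oridonin and none with DMSO, all under the floor of 3 counts.

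Levels per gene length, in FPKM, allow the genes to be set beside each other. They rest on the length deposited for each gene, so ranks and isozyme shares depend on that length. It was 2424 bases for GOT1 and 3766 for GOT2, and GOT1 had fewer CPM than GOT2 in both treatments. The 39 genes ranged from 0.107 to 67.6 FPKM with oridonin (median 4.13) and from 0.0428 to 114.6 FPKM with DMSO (median 4.43). In each treatment 15 of them were above 10 FPKM, while 9 with oridonin and 6 with DMSO were under 1 FPKM. The genes with the highest levels with oridonin were HPD at 67.6 ± 4.25 FPKM, GOT1 at 63.7 ± 1.55, GLUD1 at 61.2 ± 3.66 and GPT2 at 60.6 ± 3.81 (SD, n = 3), a run in which neighbours differed by less than the SD of HPD. With DMSO the order was GLUD1 at 114.6 FPKM in each library as deposited, GPT2 at 88.1 ± 3.85, GOT1 at 58.5 ± 5.42 and HPD at 56.5 ± 1.57 (SD, n = 3), and the first 2 stood above the rest by more than these SDs. ASS1 was at rank 8 with oridonin (22.3 ± 1.28 FPKM) and rank 5 with DMSO (48.4 ± 4.67 FPKM). ARG1 was at rank 36 with oridonin (0.418 ± 0.0946 FPKM) and rank 27 with DMSO (2.21 ± 0.447 FPKM). CPS1, the first enzyme of the cycle, was at 2.18 ± 0.121 FPKM with oridonin and 3.06 ± 0.168 FPKM with DMSO, far below ASS1 in both.

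**Figure D3:**
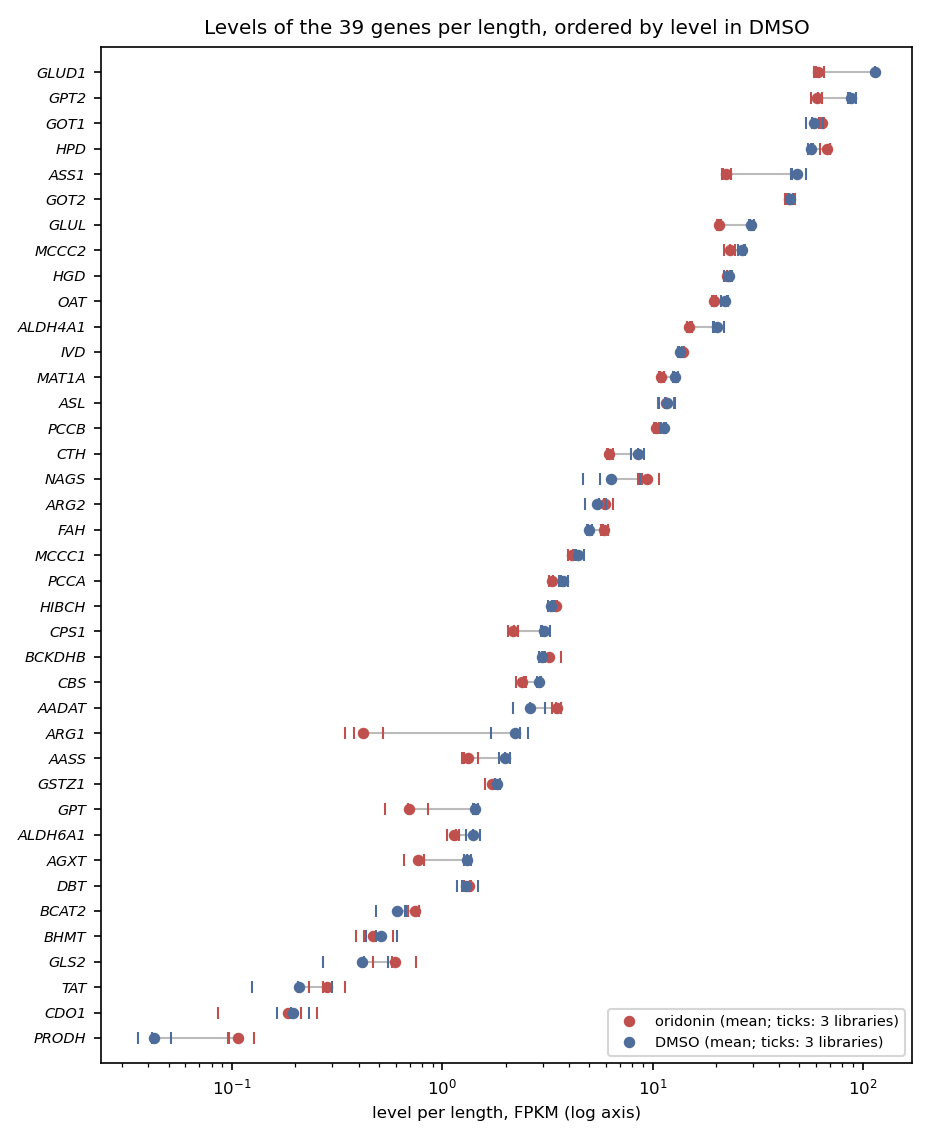
Level of the 39 genes in FPKM (log horizontal axis), ordered by their level in DMSO; points are means over 3 libraries and ticks are the libraries. The levels span from PRODH, at 0.107 FPKM with oridonin and 0.0428 with DMSO, to GLUD1, at 61.2 with oridonin and 114.6 with DMSO, and ARG1 and ASS1 show wide gaps between the treatments.

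Several steps are shared by 2 genes, and the share of each in their summed FPKM was compared between treatments as a description. ARG1 made up 8.22, 5.58 and 5.88% of the arginase FPKM sum in the oridonin libraries and 32.9, 23.4 and 30.0% in the DMSO libraries. As counted, ARG2 had the larger share in all 6 libraries and more so with oridonin. These shares are uncertain, since 37.4% of the exon bases of ARG2 overlap VTI1B, and ARG1 had 19 to 33 counts with oridonin. BCAT2 made up 15.8 ± 1.20% of the sum with its cytosolic isozyme BCAT1 with oridonin and 9.88 ± 1.63% with DMSO (SD, n = 3 each). BCAT1 itself fell, with 46.6 ± 2.12 CPM with oridonin and 65.6 ± 3.69 CPM with DMSO (SD, n = 3 each, log2 fold change -0.49, edgeR adjusted p = 4.48e-06).

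GOT1 made up 58.9 ± 0.829% of the aspartate aminotransferase sum with oridonin and 56.3 ± 1.71% with DMSO, and the libraries overlapped. GPT was a small part of the alanine aminotransferase sum, 1.12 ± 0.224% with oridonin and 1.60 ± 0.0352% with DMSO. MAT1A made up 24.2 ± 0.789% of the sum with MAT2A with oridonin and 24.8 ± 0.974% with DMSO. MAT2A fell too (log2 fold change -0.19, edgeR adjusted p = 0.00847), a call lost without DMSO library 2 (-0.16) or oridonin library 1 (-0.17). The MAT2A call held under 10 of 15 other settings and was also lost with total-count scaling. GLUD1 held 99.2 ± 0.152% of the sum with GLUD2 with oridonin and 99.0 ± 0.0804% with DMSO (SD, n = 3 for each of these shares).

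**Figure D4:**
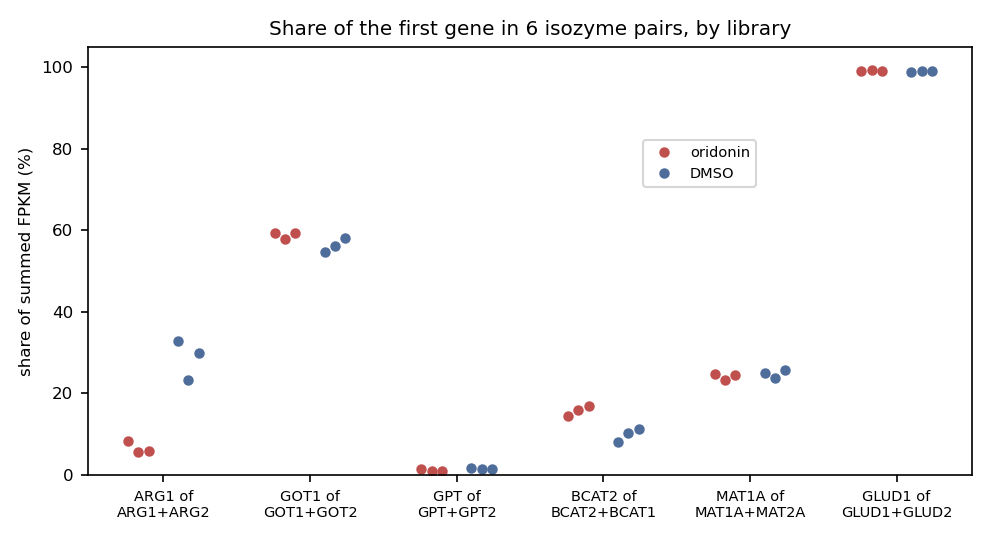
Share (%) of the first-named gene in the summed FPKM of 6 isozyme pairs; each point is a library, oridonin left of DMSO. ARG1 ranges from 5.58 to 8.22% with oridonin and from 23.4 to 32.9% with DMSO, and BCAT2 is the pair member whose share is higher in every oridonin library than in any DMSO library.

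Calls in both directions were found among mitochondrial and among cytosolic enzymes. Of 22 tested genes for mitochondrial enzymes, 2 were called higher and 10 lower, beside 20.6% higher and 21.3% lower of all genes tested, and the median log2 fold change was -0.07. Of 16 for cytosolic enzymes, 2 were called higher and 7 lower, and the median was -0.15. The sole peroxisomal enzyme, AGXT, fell. Genes were placed by general knowledge with their values known, and the difference between compartments was not tested.

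Beyond the 43 genes, 99 further genes of amino acid carriers, synthesis, other breakdown steps and regulation were listed, of which 89 were tested. Oridonin raised 13 of these 89 (14.6%) and lowered 42 (47.2%), beside 20.6% and 21.3% of all genes tested. Their median log2 fold change was -0.19. With total-count scaling the numbers were 20 higher and 31 lower. Among 10 genes of carriers and urea cycle support, 3 rose and 4 fell, beside 20.6% and 21.3% of all genes tested. SLC25A12 and SLC25A13 encode the mitochondrial aspartate-glutamate carriers that supply aspartate for ASS1. SLC25A13, the liver form, fell (log2 fold change -0.29 ± 0.05, SE, edgeR adjusted p = 0.00017) and SLC25A12 rose (0.52 ± 0.08, edgeR adjusted p = 3.98e-05). AGMAT, a mitochondrial agmatinase relative, fell by 0.24 ± 0.05 on the log2 scale (edgeR adjusted p = 0.000666).

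Glutamine, glutamate and proline synthesis had 2 genes called higher and 5 lower of 9, beside 20.6% higher and 21.3% lower of all genes tested. ASNS, the asparagine synthetase, averaged 118.7 ± 4.59 CPM with oridonin and 177 ± 7.03 CPM with DMSO (SD, n = 3 each, log2 fold change -0.58, edgeR adjusted p = 1.15e-07). ALDH18A1, which makes pyrroline-5-carboxylate from glutamate, fell by 0.46 ± 0.05 on the log2 scale (edgeR adjusted p = 6.55e-07). NIT2, an amidase of glutamine breakdown, rose by 0.38 ± 0.06 (log2, edgeR adjusted p = 0.000134). Of 7 genes of phenylalanine and histidine breakdown, 4 fell and none rose, beside 21.3% lower and 20.6% higher of all genes tested. HAL, the histidine ammonia-lyase, averaged 1.37 ± 0.169 CPM with oridonin and 5.46 ± 0.347 CPM with DMSO (SD, n = 3 each, log2 fold change -1.99, edgeR adjusted p = 2.61e-08).

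KYNU, the kynureninase of tryptophan breakdown, was the 1 gene called higher among 11 genes of tryptophan and lysine breakdown, of which 5 fell. Of all genes tested, 20.6% were called higher and 21.3% lower. KYNU averaged 102 ± 5.57 CPM with oridonin and 33.8 ± 1.63 CPM with DMSO (SD, n = 3 each, log2 fold change 1.60, edgeR adjusted p = 6.2e-12). PIPOX and ALDH7A1, both of lysine breakdown like AASS, fell by 0.79 ± 0.06 and by 0.39 ± 0.05 on the log2 scale (SE, edgeR adjusted p = 1.73e-08 and 1.56e-05). The branched-chain and propionate list had 3 genes higher and 6 lower of 16, beside 20.6% and 21.3% of all genes tested. MCEE, the methylmalonyl-CoA epimerase downstream of PCCA and PCCB, averaged 21.8 ± 0.356 CPM with oridonin and 40.7 ± 0.892 CPM with DMSO (SD, n = 3 each, log2 fold change -0.90, edgeR adjusted p = 5.32e-09). ACADSB, the short/branched-chain acyl-CoA dehydrogenase, fell by 0.71 ± 0.05 (log2, edgeR adjusted p = 1.5e-08), and HSD17B10 of isoleucine breakdown rose by 0.30 ± 0.05 (log2, edgeR adjusted p = 0.000278).

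For glycine, serine and threonine, 1 gene rose and 6 fell of 13, beside 20.6% higher and 21.3% lower of all genes tested. SARDH, the sarcosine dehydrogenase, fell by 0.50 ± 0.08 and PRODH2, the hydroxyproline dehydrogenase, by 0.49 ± 0.08 on the log2 scale (SE, edgeR adjusted p = 6.1e-05 and 8.39e-05). SDSL, the homologue of SDS, rose by 0.46 ± 0.15 (log2, edgeR adjusted p = 0.0194), a call lost without DMSO library 2 (0.37), DMSO library 3 (0.40), oridonin library 1 (0.40) or oridonin library 3 (0.44). The sulfur and methionine list had 2 genes higher and 5 lower of 11, beside 20.6% and 21.3% of all genes tested. AHCY, which splits S-adenosylhomocysteine, fell by 0.27 ± 0.05 and TST, the sulfurtransferase rhodanese, by 0.26 ± 0.07 on the log2 scale (SE, edgeR adjusted p = 0.000345 and 0.0038). BHMT2, the close paralogue of BHMT, rose by 0.64 ± 0.08 (log2, edgeR adjusted p = 4.6e-06).

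Of 12 tested regulators of these pathways, 7 fell and 1 rose, beside 21.3% lower and 20.6% higher of all genes tested. Their median log2 fold change was -0.44, beside 0.01 over all genes tested, and the list was drawn up with results of these data known. PPARGC1A, a coactivator of fasting gene programmes in liver, averaged 7.44 ± 0.958 CPM with oridonin and 19.9 ± 0.995 CPM with DMSO (SD, n = 3 each, log2 fold change -1.42, edgeR adjusted p = 4.7e-09). NR1H4, the bile acid receptor, had a log2 fold change of -1.18 ± 0.07 (SE, edgeR adjusted p = 9.8e-10). CREB3L3, a liver transcription factor of the endoplasmic reticulum, averaged 3.87 ± 0.647 CPM with oridonin and 1.63 ± 0.290 CPM with DMSO (SD, n = 3 each, log2 fold change 1.26, edgeR adjusted p = 3.09e-05). Picked after their values were seen, ATF4, CEBPA, CEBPB, NR3C1 and FOXO1 were the other 5 called lower, at log2 fold changes of -0.57 to -0.38. HNF4A, PPARA and KLF15 were among those not called.

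**Figure D5:**
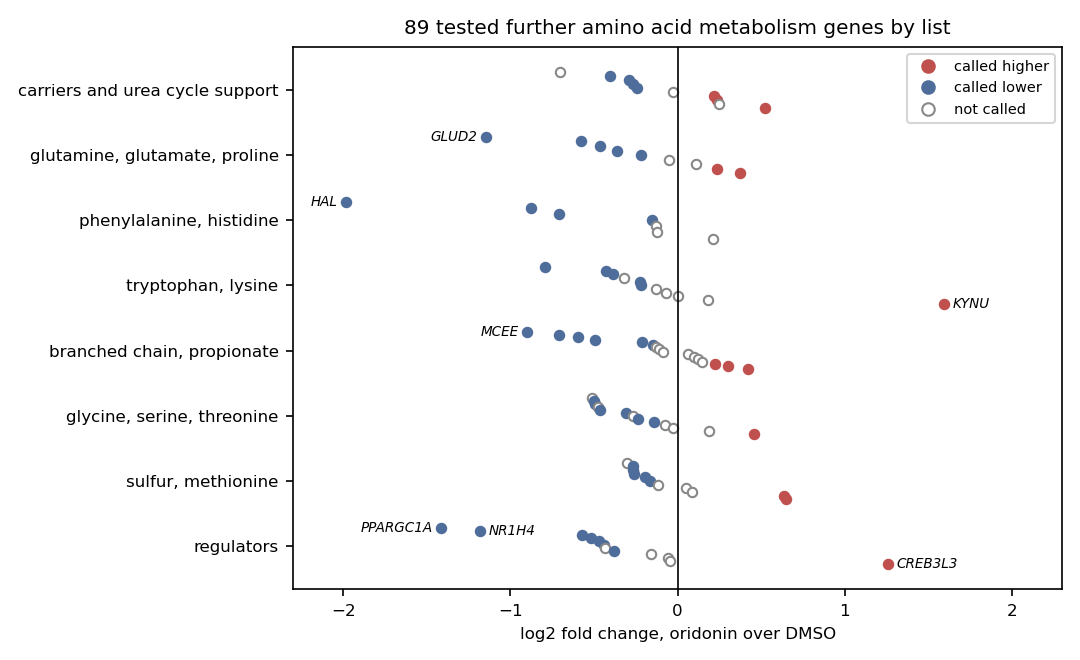
Log2 fold change, oridonin over DMSO, of the 89 further genes tested, each a point, by list on the vertical axis; filled points were called at adjusted p under 0.05. The 42 genes called lower reach from -1.99 for HAL to -0.14 and the 13 called higher reach 1.60 for KYNU.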

How the data were processed

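Sequencing used Illumina libraries of total RNA from HepG2 cells, 3 per treatment. The authors deposited raw counts per gene for 60504 genes, and log2 FPKM values for 18404 genes, which were the genes that had 1 count or more in all 6 libraries. Per the submitters' processing notes, the genome was hg38 and DESeq2 1.10.1 served in the analysis. No aligner, counter or strandedness is given in the sources used here. Reads of overlapping or near-identical genes could therefore have gone to either gene.

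Counts were tested with edgeR 4.0.16 under R 4.3.3 (robust glmQLFit followed by glmQLFTest, filterByExpr at its defaults, TMM factors, treatment as the only term), and p-values were adjusted by Benjamini-Hochberg over 15116 genes. The SE of a log2 fold change is its absolute value over the root of F. CPM values are TMM scaled unless called CPM of total counts, and errors are SDs over 3 libraries. Total counts of 22250202 to 30739574 per library put 3 counts at 0.0976 to 0.135 CPM, and reads without molecular identifiers are not independent molecules. Libraries within a treatment differed beyond sampling noise, so none was counted as a repeat. The edgeR fit was run on simulated counts of 14904 genes. It recovered 68.3% of 104 genes changed by 0.5 on the log2 scale and 91.2% of 91 changed by 1. Smaller changes were not simulated, and far fewer genes changed there than were called here. Alternatives used other scalings and filters, DESeq2 1.42.0, limma 3.58.1 on the deposited log2 FPKM values and on log2(FPKM + 1), a replicate block, and each library left out. Promoters are RefSeq's (GRCh38.p14) and exon overlaps GENCODE's, and gene coordinates are those of the deposited tables on hg38 for the genes in the FPKM table.

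The genes and lists were chosen with earlier results of these data known. Values per library are given for untested genes and for called genes whose higher mean reached 10 CPM and whose absolute log2 fold change reached 0.3. They are also given for NAGS, HPD, ARG1, ARG2, GPT and PRODH, added after their values were seen, as were the comparisons with annotated copies and overlapping genes. Of the further genes, each list gave up to 2 of the smallest p on the side that had more calls, and up to 1 on the opposite side, besides isozyme partners, and some of the genes so chosen are not reported here.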

Additional observations from a re-analysis of the deposited data

How the results depend on the processing

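Over 15 other settings, 18 of the 22 called genes of the list kept their call wherever they could be tested, and no called gene changed direction. The exceptions were ALDH6A1, PCCA, PCCB and OAT. Genes of the list called higher and lower numbered 4 to 6 and 15 to 17 with a library left out, 5 and 14 with total counts, 4 and 16 with DESeq2 and 4 and 15 with limma on log2 FPKM. The further genes gave 9 to 12 higher and 35 to 42 lower with a library left out, and 20 higher with total counts, against 13. All tested genes gave 2534 to 3258 higher and 2748 to 3289 lower with a library left out. With DESeq2 they gave 2681 higher and 2988 lower of 15116, and with limma on log2 FPKM 2780 higher and 2598 lower of 18404. Total counts moved the median log2 fold change by 0.08. Direction turned for 6 genes, none of them called: with total counts ASL (0.053), GOT2 (0.047) and HGD (0.035), and with a library left out ASL (-0.087 to 0.036), BCKDHB (-0.013 to 0.14), DBT (-0.041 to 0.13) and CDO1 (-0.45 to 0.22). The cause of these shifts was not tested. At 3 libraries per treatment, the genes of the list under 1 CPM in both treatments, PRODH and CDO1, had SEs of 0.31 and 0.40 on the log2 scale.

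The labels give both treatments replicate numbers 1 to 3 but do not say that a number marks shared cells or a shared day. Deviations from the group means correlated at 0.194, 0.0651 and 0.173 for libraries of the same number. They correlated at -0.162 to 0.00732 for libraries of different numbers, so each library correlated best with its own number. The numbers were not taken as pairs because the labels do not state a pairing, and whether a number marks a shared batch was not tested. With a replicate block, 6 genes of the list were called higher, NAGS (log2 fold change 0.56) and GOT1 (0.11) in addition, and 18 lower. The block called 3850 of all tested genes higher and 3839 lower, and 15 and 48 of the further genes.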
